A study of Homo sapiens with 6 samples.

Results

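The 10 genes described here encode the BAG domain cochaperones BAG1 to BAG6, the small heat shock proteins HSPB1 and HSPB8, and the heat shock factors HSF1 and HSF2. They were chosen by family, by matching the Ensembl identifiers of the deposited table to these symbols, and all 10 were found among 20014 genes. Their mRNA was compared between 3 libraries of STUB1 knockout HaCaT cells (STUB1 Knockout 1 to 3) and 3 libraries of control HaCaT cells, whose genotype is given as WT (Control 1 to 3). HaCaT is an immortalized human keratinocyte line. Both groups had received a lentiviral CRISPR vector, with a guide against STUB1 in the knockout and a control guide in the control, and no further treatment. Sorted cells were grown as colonies and screened by STUB1 immunoblot. No label tells if each library is its own clone or culture, so the p-values rest on library-to-library spread that may be technical.

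STUB1, also called CHIP, is a ubiquitin ligase that binds HSP70 and HSP90 and marks their clients for degradation. BAG proteins typically, though not in every case, bind the ATPase domain of HSP70 and release its nucleotide, and members steer the client differently. BAG1 docks on the proteasome, BAG3 leads clients to autophagy together with HSPB8, and BAG2 inhibits the ligase activity of STUB1. HSF1 is the transcription factor that induces chaperones, BAG3 and small heat shock proteins under proteotoxic stress, and HSF2 can form mixed trimers with it. Small heat shock proteins hold unfolding proteins without using ATP.

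The table gives FPKM, fragments per transcript length and library size. Library sizes estimated roughly from it were 45700000 to 52600000 reads, with limits given under the processing of the data. The targeted gene STUB1 was at 21.6, 24.7 and 23.2 FPKM in the knockout libraries, against 37.8, 41.9 and 52.7 FPKM in the control libraries. It stood at 52.5% of the control mean (log2 fold change -0.89 by limma with Benjamini-Hochberg, or BH, adjustment over all tested genes, adjusted p = 0.00125). Of its 2316 exonic bases, 983 overlap JMJD8 on the other strand, and reads there cannot be assigned. JMJD8 was at 24.5, 27.9 and 25.4 FPKM in the knockout libraries, against 31.4, 35.3 and 40.6 FPKM in the control libraries, and it also fell (log2 fold change -0.44, limma, adjusted p = 0.0142, but 0.0630 without knockout 1 and 0.0576 without knockout 3). Of 9 keratinocyte markers, 7 averaged at least 1 FPKM; KRT14 and KRT17 were near 0, at most at 0.328 and 0.536 FPKM in any library. Keratinocyte markers summed to between 1016 and 1132 FPKM in knockout libraries, against between 825 and 893 FPKM in control libraries, and their part in the results was not tested. The 7 fibroblast markers summed to at most 0.562 FPKM in a knockout library and 0.535 FPKM in a control library. Of the melanocyte markers PMEL and MITF exceeded 1 FPKM and TYR was at 0, and of the leukocyte markers CD68 did while PTPRC reached at most 0.011 FPKM. Control 3 stood apart, with a mean correlation of 0.987 to the other control libraries on the log2(FPKM + 1) scale, where the other 5 libraries had 0.992 to 0.998 within their group. Values that leaving out control 3 moved by over 1.5 times are also given without it.

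The levels of the 10 genes spanned a wide range, and FPKM allows them to be set side by side because it is per length. HSPB1, the abundant HSP27 of keratinocytes, was highest, at 350.9 ± 37.5 FPKM in the knockout and 334.2 ± 97.1 FPKM in the control (SD, n = 3 each). BAG3 followed at 58.9 ± 1.41 FPKM in the knockout and 63.2 ± 0.897 FPKM in the control, then BAG6, HSF1 and BAG5. These 5 genes kept this order in both groups, and the ranges of neighbours in the order did not overlap. Below BAG5 the order differed between the groups. In the knockout it was BAG1, BAG2, BAG4, HSF2 and HSPB8, and among the last 4 of these each range overlapped the next. In the control it was HSF2, BAG2, BAG1, BAG4 and HSPB8, with overlapping ranges between HSF2 and BAG2 and between BAG2 and BAG1. HSF2 thus stood at rank 9 of 10 in the knockout and at rank 6 in the control. HSPB8 was the lowest in both groups, at 5.99 ± 0.207 FPKM in the knockout and 5.94 ± 0.472 FPKM in the control (SD, n = 3 each).

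The genes lie on 7 chromosomes (GENCODE 29, GRCh38). Outside chromosome 6, BAG1 spans 33247820 to 33264720 on the minus strand of chromosome 9, and BAG3 spans 119651370 to 119677819 on the plus strand of chromosome 10. BAG4 and HSF1 lie on the plus strand of chromosome 8, at 38176533 to 38213301 and at 144291591 to 144314722. BAG5 spans 103556544 to 103562831 on the minus strand of chromosome 14. HSPB1 spans 76302544 to 76304295 on chromosome 7 and HSPB8 spans 119178642 to 119221131 on chromosome 12, both on the plus strand. Short exonic overlaps occur between HSF1 and DGAT1 (139 bases), BAG4 and LSM1 (198 bases), BAG6 and APOM (136 bases), and BAG5 and KLC1 (72 bases), and reads there cannot be assigned to 1 gene.

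**Figure D1:**
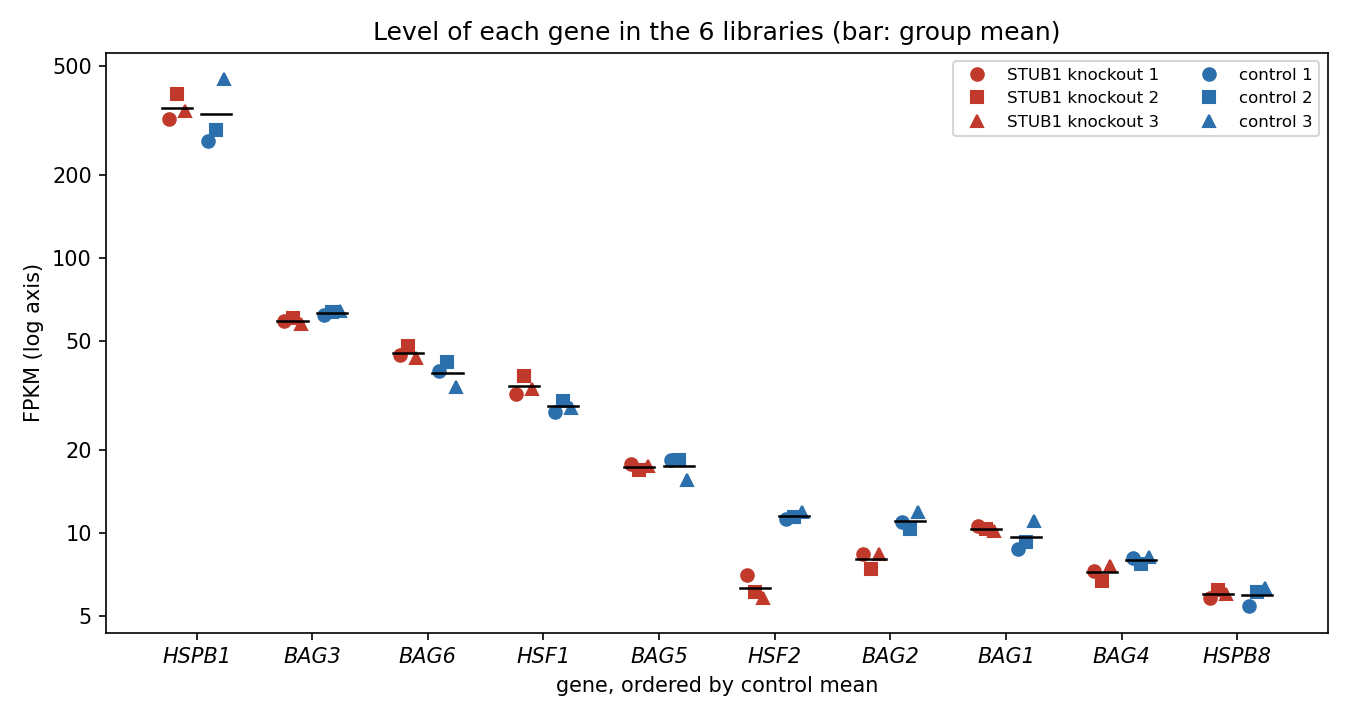
FPKM of the 10 genes in each library on a log axis, with knockout libraries (red) left of control libraries (blue), 1 symbol shape per replicate number and a bar at each group mean. HSF2 and BAG2 lie lower in all 3 knockout libraries than in any control library, and control 3 is the highest library for HSPB1.

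HSF2 and BAG2 fell in the knockout, no member rose, and 8 of 10 did not pass (limma on log2(FPKM + 1), BH-adjusted over 11262 tested genes). Over all tested genes 22.9% were called, 13.3% lower and 9.58% higher, so 2 calls among 10 members is near the background. HSF1 and BAG6 were both called higher under the replicate block, where 27.1% of tested genes were called and 12.1% were higher. Without control 2, BAG6 was the 1 higher member (24.6% of tested genes called, 12.0% higher), and without control 3 HSF1, BAG6, BAG1 and HSPB1 were (40.1% called, 18.7% higher). With array weights these 4 were higher (57.2% of tested genes called, 27.9% higher) and BAG3 joined HSF2 and BAG2 among the lower (29.3% lower). In the other settings only HSF2 and BAG2 were called. There the share of tested genes called was 22.6% with a pseudocount of 0.1, 15.3% without a filter, 20.3% as TPM, and 28.6% after correction for GC content and length (25.9% with the block added). It was 12.6%, 9.15% and 10.6% without knockout 1, 2 and 3, and 13.3% without control 1. No member changed 2-fold on the log2 scale. The median log2 fold change was 0.01 over the 10 members and -0.01 over all tested genes, and the median size of the change without regard to sign was 0.12 over the members and 0.15 over all tested genes. The ranges of knockout and control did not overlap for 6 of the 10 genes. HSF2, BAG2, BAG3 and BAG4 were lower and BAG6 and HSF1 higher in every knockout library. For all tested genes the share without overlap was 45.6%, with 25.3% lower and 20.4% higher. An exact two-sided permutation test of 3 against 3 libraries cannot go below 0.1, and each of these 6 genes had 0.1.

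**Figure D2:**
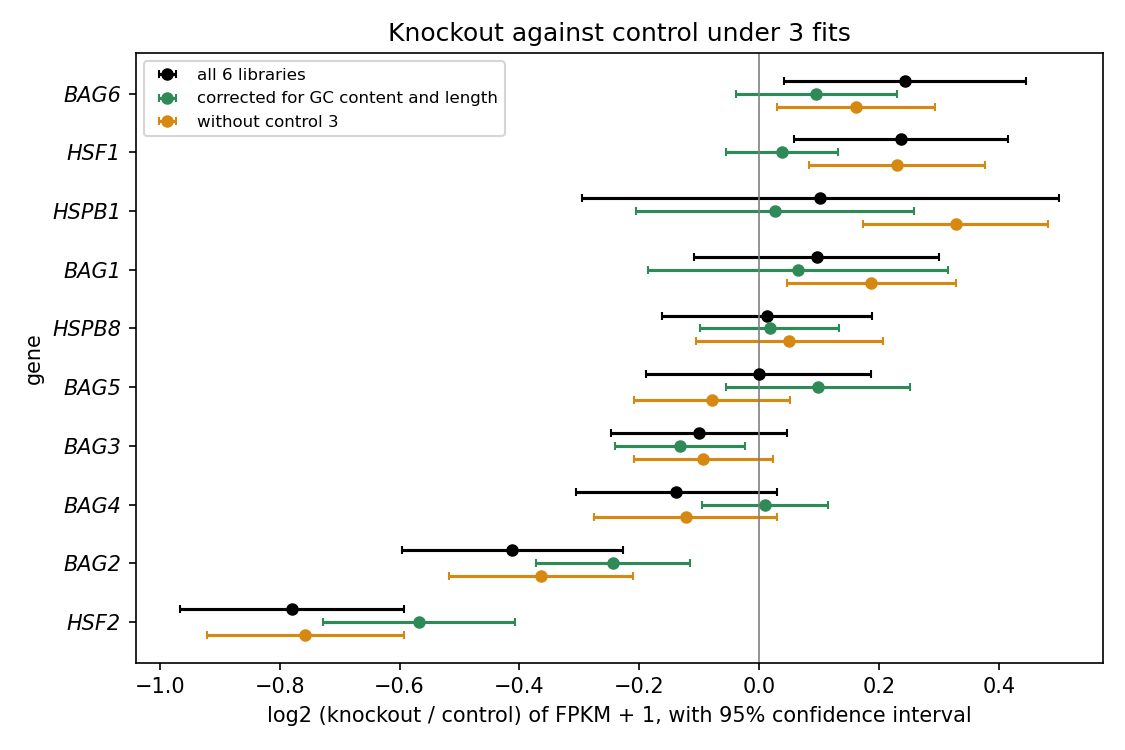
Log2 fold change of knockout over control on the log2(FPKM + 1) scale (horizontal axis) with its 95% confidence interval for each gene, from all 6 libraries (black), after correction for GC content and length (green) and without control 3 (orange). The intervals of HSF2 and BAG2 lie below 0 in all 3 fits, while those of HSF1 and BAG6 include 0 after the correction.

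Of the heat shock factors HSF2 fell and HSF1 did not pass. HSF2 was at 7.04, 6.09 and 5.81 FPKM in the knockout libraries, against 11.2, 11.4 and 11.9 FPKM in the control libraries. Every knockout library was lower than every control library, and the knockout mean was 54.8% of control. On the log2 scale the difference was -0.78 (SE 0.0829, 95% confidence interval -0.97 to -0.59; limma, adjusted p = 0.000494). In RNA from whole cultures, fewer cells with the transcript and less of it per cell cannot be told apart. HSF2 remained past the threshold under all 13 alternatives, with adjusted p between 2.29e-09 and 0.00985 (limma). HSF1 was at 31.9, 37.1 and 33.4 FPKM in the knockout libraries, against 27.6, 30.3 and 28.5 FPKM in the control libraries. All knockout libraries were above all control libraries, with a mean of 119% of control, but HSF1 did not pass (log2 fold change 0.24, 95% confidence interval 0.06 to 0.41, limma, adjusted p = 0.0602). Fits that took replicate numbers as a block (0.0400), weighted the libraries (array weights, 0.000294) or left out control 3 (0.0152) called it. After the correction for GC content and length its difference was 0.04 (adjusted p = 0.507). The FPKM ratio of HSF1 to HSF2 was 4.53, 6.09 and 5.76 in the knockout libraries, against 2.46, 2.65 and 2.39 in the control libraries. A difference between the responses of the 2 genes was not tested.

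The fall of HSF2 coincided with lower levels of most genes around it. HSF2 lies on chromosome 6 at 122399546 to 122433119 (GRCh38, plus strand). Among 36 other tested genes within 10 Mb of its start, 28 were lower, 0 were higher, and the median log2 fold change was -0.47. Of these neighbours 3 had a lower value than HSF2, whose log2 fold change lay 0.31 below their median. Beyond HSF2, 101 of 118 tested genes of the chromosome were lower, with a median of -0.54. From BAG2 to HSF2, 100 of 121 were lower, with a median of -0.50, and between the start of the chromosome and BAG2, 31 of 334 were lower and 33 higher, with a median of 0.04. The copy number of this stretch was not measured here, and its part in the HSF2 value was not tested. Genes whose 6 values were most like those of HSF2, by Pearson correlation of log2(FPKM + 1) over the 6 libraries, were SESN1 (0.998), ANAPC7 (0.998) and WASF1 (0.996). SESN1 and WASF1 also lie on chromosome 6, and ANAPC7, with a log2 fold change of -0.14, on chromosome 12. These were picked as the highest values among all tested genes. Because the libraries form a knockout and a control group, any gene with a steady fall in the knockout has a high correlation with HSF2.

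**Figure D3:**
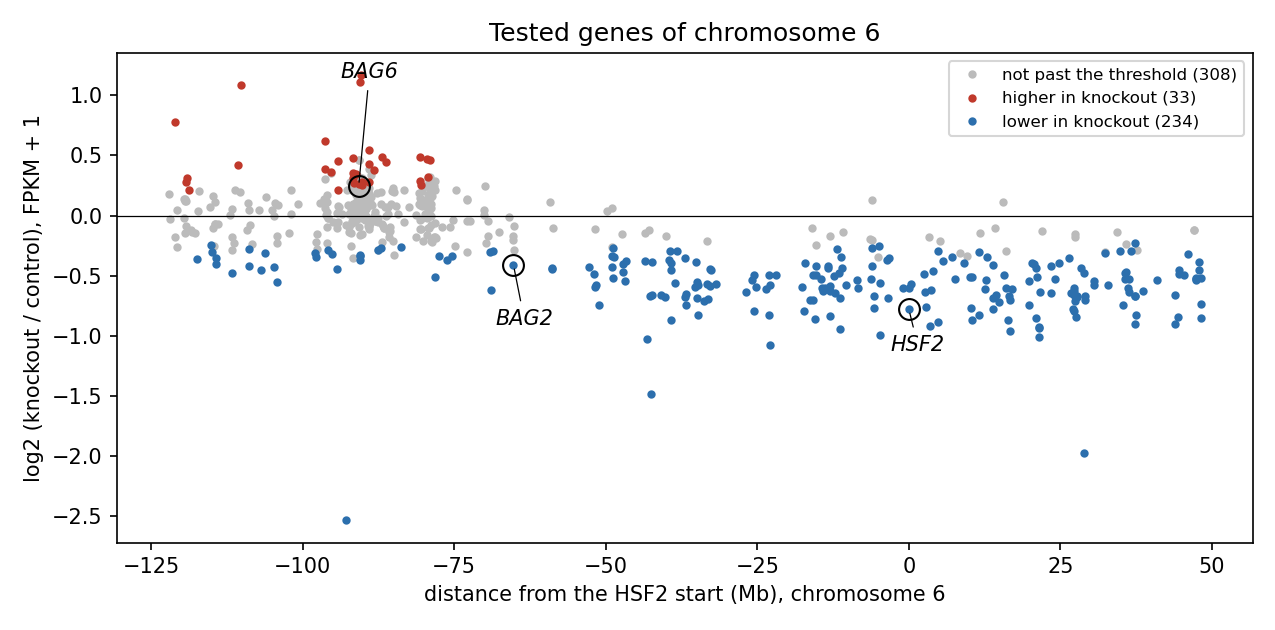
Log2 fold change of knockout over control for each tested gene of chromosome 6 against the distance of its start from that of HSF2 in Mb, with lower genes in blue, higher genes in red and genes not past the threshold in grey. Circles mark BAG6, BAG2 and HSF2. Most genes to the right of BAG2 lie below 0, with medians of -0.50 up to HSF2 and -0.54 beyond it.

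BAG2, the cochaperone that inhibits STUB1, was at 8.36, 7.41 and 8.37 FPKM in the knockout libraries, against 10.9, 10.3 and 11.9 FPKM in the control libraries. All knockout libraries were lower than all control libraries, at 72.9% of the control mean. Its log2 fold change was -0.41 (SE 0.0818, 95% confidence interval -0.60 to -0.23; limma, adjusted p = 0.00821). BAG2 remained past the threshold under all 13 alternatives, with adjusted p between 9.23e-06 and 0.0436 (limma), but correcting for GC content and length left a difference of -0.24 (adjusted p = 0.0150, blocked 0.0239). BAG2 lies on chromosome 6 at 57172326 to 57189833 (GRCh38, plus strand). Its start was used as the cut for the stretch of lower genes, and this cut was not fitted to the values. The next tested genes, RAB23, PRIM2 and FKBP1C, did not pass, while ELOVL5, GCLC and LRRC1 shortly before BAG2 were lower. Among 27 tested genes within 10 Mb, 5 were lower and 0 higher, with a median of -0.10, and 3 of them had a lower value than BAG2. BAG2 shares 2842 of its 6651 exonic bases with RAB23, a small GTPase gene on the opposite strand, and the strand setting is not given, so reads of the shared part cannot be assigned. RAB23 was at 4.02, 2.99 and 3.73 FPKM in the knockout libraries, against 4.69, 4.46 and 4.56 FPKM in the control libraries, and did not pass (log2 fold change -0.29, limma, adjusted p = 0.0521). RAB23 was called under the replicate block (0.0328), array weights (0.000722) and the fit lacking control 3 (0.0166). The ratio of BAG2 to STUB1 FPKM was 0.387, 0.299 and 0.361 in the knockout libraries, against 0.288, 0.247 and 0.225 in the control libraries. Both genes fell, BAG2 to 72.9% and the targeted gene STUB1 to 52.5% of the control mean. The higher ratio thus reflects the larger fall of STUB1.

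BAG6, a nuclear and cytosolic quality-control factor that guards tail-anchored membrane proteins, was at 44.4, 47.9 and 43.2 FPKM in the knockout libraries, against 38.8, 41.7 and 33.8 FPKM in the control libraries. The groups did not overlap, but the gap between knockout 3 and control 2 was small. BAG6 did not pass (log2 fold change 0.24, 95% confidence interval 0.04 to 0.44, limma, adjusted p = 0.0792). BAG6 was called under the replicate block (0.0418), array weights (0.00702) and the fits lacking control 2 (0.0433) or control 3 (0.0480, log2 fold change 0.16), and its log2 fold change was 0.09 after the correction for GC content and length (adjusted p = 0.257). BAG6 lies in the histocompatibility region of chromosome 6 at 31639028 to 31652705, far from the lower stretch, where 188 tested neighbours had a median of 0.07.

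The other 4 BAG genes did not pass. BAG3, the autophagy cochaperone, was at 58.9, 60.3 and 57.5 FPKM in the knockout libraries, against 62.2, 63.5 and 63.9 FPKM in the control libraries. The groups did not overlap, at 93.2% of the control mean (log2 fold change -0.10, 95% confidence interval -0.25 to 0.05, limma, adjusted p = 0.287). It passed with array weights (adjusted p = 0.0317). BAG4, also called SODD, which binds the death domain of TNF receptors, was at 7.28, 6.69 and 7.56 FPKM in the knockout libraries, against 8.09, 7.70 and 8.19 FPKM in the control libraries. Here too the groups did not overlap, and the log2 fold change was -0.14 (95% confidence interval -0.31 to 0.03), with a value of 0.01 after the correction for GC content and length. BAG1 was at 10.5, 10.3 and 10.2 FPKM in the knockout libraries, against 8.72, 9.24 and 11.1 FPKM in the control libraries. Control 3 was the highest of the 6 libraries and the other control libraries were the lowest, so the groups overlapped. The log2 fold change of BAG1 was 0.10 (95% confidence interval -0.11 to 0.30, limma, adjusted p = 0.464), and without control 3 it was 0.19 and passed (adjusted p = 0.0339), as it did with array weights (0.00280). BAG5, a family member with several BAG domains that inhibits Parkin, was at 17.8, 16.9 and 17.6 FPKM in the knockout libraries, against 18.4, 18.5 and 15.5 FPKM in the control libraries. Its log2 fold change was 0.00 (95% confidence interval -0.19 to 0.19, limma, adjusted p = 0.993), and -0.08 without control 3.

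Summed over the 6 BAG genes, the level overlapped between the groups. The sum was 147.2, 149.5 and 144.3 FPKM in the knockout libraries, against 147.1, 151.0 and 144.3 FPKM in the control libraries. BAG3 made up 39.8% to 40.3% of this sum in knockout libraries, against 42.1% to 44.2% in control libraries. The share of BAG6 was 29.9% to 32.0% in knockout libraries, against 23.4% to 27.6% in control libraries, and that of BAG2 was 4.95% to 5.80% in knockout libraries, against 6.85% to 8.21% in control libraries. The ratio of BAG3 to BAG1, cochaperones of autophagy and of the proteasome, was 5.58, 5.83 and 5.64 in the knockout libraries, against 7.13, 6.88 and 5.77 in the control libraries. Control 3 lay within the knockout range of this ratio.

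The small heat shock proteins did not pass. HSPB1 was at 319.7, 393 and 340.4 FPKM in the knockout libraries, against 267, 291 and 445 FPKM in the control libraries. Control 3 was the highest library, and controls 1 and 2 were below all knockout libraries. With all 6 libraries the log2 fold change was 0.10 (95% confidence interval -0.29 to 0.50, limma, adjusted p = 0.703). Without control 3 it was 0.33 (95% confidence interval 0.17 to 0.48, adjusted p = 0.00224), without control 1 it was -0.04 (adjusted p = 0.893), and with array weights it was 0.31 (adjusted p = 0.000419). After the correction for GC content and length it was 0.03 (adjusted p = 0.865). HSPB1 has pseudogenes in GENCODE, and reads may be shared with them. HSPB8, the partner of BAG3, was at 5.79, 6.21 and 5.98 FPKM in the knockout libraries, against 5.41, 6.11 and 6.30 FPKM in the control libraries. The groups overlapped, with a log2 fold change of 0.01 (95% confidence interval -0.16 to 0.19, limma, adjusted p = 0.921), and 0.05 without control 3. Of 9 other listed small heat shock proteins 8 were in the table under their listed symbols, and none was tested: the highest value of any of them in any library was 0.193 FPKM. CRYAB, the alpha-B crystallin of muscle and lens, reached 0.061 FPKM, and CRYAA, HSPB2, HSPB3, HSPB7 and ODF1 were listed at 0 in every library.

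Promoter windows are shown because heat shock factors bind inverted repeats of the unit GAA, called heat shock elements, and 3 members hold a pair of such units near the start. The motifs searched were GAANNTTC and TTCNNGAA (2 units), and GAANNTTCNNGAA and TTCNNGAANNTTC (3 units). Each motif of 2 units reads the same on both strands, the 3-unit motifs are each other's reverse complement, and a 3-unit match contains both 2-unit motifs. RefSeq windows from 250 bases before to 50 bases after the start (GRCh38.p14) were matched for 8 members, with 11 windows. Those of BAG2, HSPB1 and HSPB8 held a 2-unit match, and 0 held a 3-unit match. Of 35116 windows of all genes, 13.5% held a 2-unit match and 0.490% a 3-unit match, and of 39 windows of 23 HSF1 target genes listed below, 46.2% and 20.5% did. The 250 bases before the RefSeq start follow, 5′ to 3′ on the plus strand, with the 2-unit match in capitals.
BAG2, chr6:57172076-57172325: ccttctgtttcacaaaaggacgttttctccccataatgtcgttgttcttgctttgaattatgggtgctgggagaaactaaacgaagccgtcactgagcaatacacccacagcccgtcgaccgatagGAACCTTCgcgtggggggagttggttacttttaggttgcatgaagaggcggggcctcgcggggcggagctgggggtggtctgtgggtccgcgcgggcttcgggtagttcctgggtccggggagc
HSPB1, chr7:76302423-76302672: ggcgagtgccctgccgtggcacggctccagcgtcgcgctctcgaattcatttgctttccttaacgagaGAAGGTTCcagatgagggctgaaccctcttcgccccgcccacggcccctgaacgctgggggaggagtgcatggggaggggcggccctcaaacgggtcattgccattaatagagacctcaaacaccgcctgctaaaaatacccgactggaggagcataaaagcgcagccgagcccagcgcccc
HSPB8, chr12:119178681-119178930: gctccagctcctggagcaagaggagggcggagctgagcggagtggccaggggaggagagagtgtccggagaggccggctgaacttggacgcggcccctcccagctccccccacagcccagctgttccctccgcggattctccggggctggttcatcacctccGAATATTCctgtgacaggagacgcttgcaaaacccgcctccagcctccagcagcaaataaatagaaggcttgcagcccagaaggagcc
The match lies 124 to 117 bases before the RefSeq start in BAG2. In HSPB1 it lies 182 to 175 bases before that start, and in HSPB8 88 to 81 bases before it. HSPB8 held another, GAAGTTTC, at bases 5 to 12 after the RefSeq start. The GENCODE starts of HSPB1 (76302544) and HSPB8 (119178642) lie upstream of these RefSeq starts. Both HSPB8 matches thus fall inside its GENCODE span, while the HSPB1 match lies before its GENCODE start. Of the 3 genes BAG2 fell and the other two did not pass. A match in these letters is a description of the window and shows no binding.

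The log2 fold changes of the 10 genes ran with the GC content of their transcripts. BAG2 (37.0% GC), BAG4 (40.0%) and HSF2 (40.5%) had the lowest GC content and the lowest log2 fold changes. Of these, HSF2 lies in the lower stretch of chromosome 6 and BAG2 at the cut used for it. The part of position in this pattern was not tested. HSF1 (64.7%), HSPB1 (64.3%) and BAG6 (59.9%) had the highest GC content and the highest log2 fold changes. Over the 10 genes, which share the 6 libraries, Pearson's r between GC content and log2 fold change was 0.718 and Spearman's rho 0.842. Over 11177 tested genes with a known GC content they were 0.397 and 0.461. The median log2 fold change of all tested genes was -0.14 in the lowest of 4 equal bins of GC content and 0.13 in the highest. After the correction for GC content and length, HSF2 and BAG2 kept their calls, at -0.57 (adjusted p = 0.00110) and -0.24 (adjusted p = 0.0150), with 28.6% of tested genes called in that fit (limma, BH). The part of GC content in the other values was not tested.

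**Figure D4:**
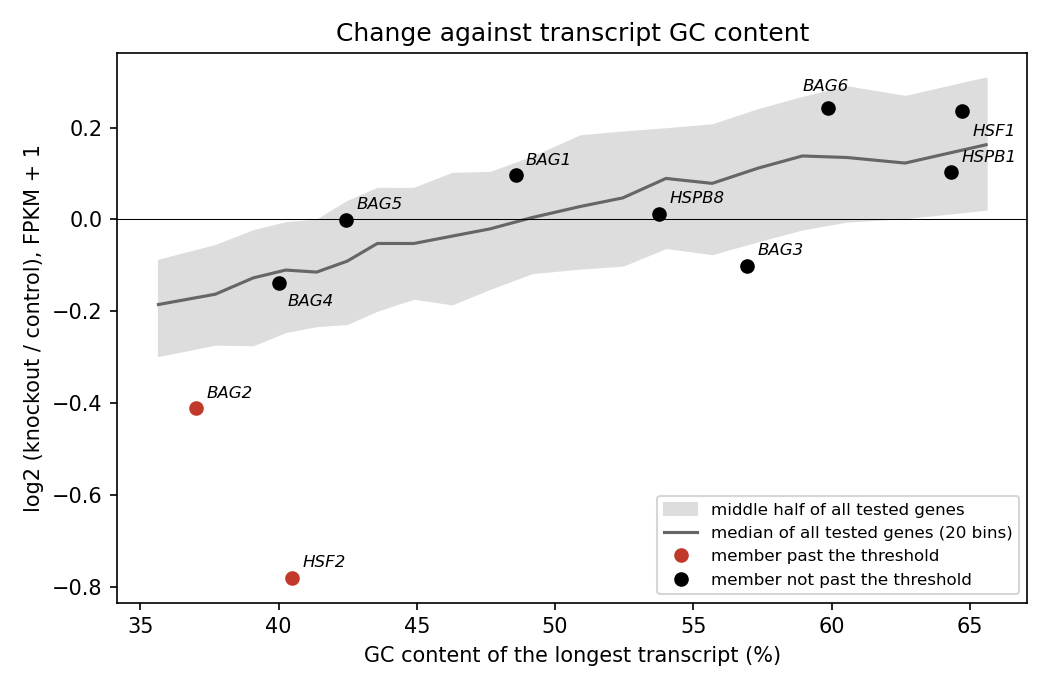
Log2 fold change of knockout over control against the GC content of the longest transcript in percent, for the 10 genes (points) and for all tested genes in 20 bins (line for the median, grey band from the 25th to the 75th percentile). HSF2 and BAG2 (red) lie below the band, and of the 8 genes not past the threshold (black) BAG3 lies below it.

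Many genes that HSF1 is known to induce fell in the knockout, while HSF1 mRNA itself did not pass. The list was drawn up with earlier results of these data in view and is no independent evidence of direction. It shares PTGES3, HSPA4, HSPH1, HSPA4L, HSPA1A, HSPA1B, HSPA8 and DNAJB6 with lists described below. The members BAG3, HSPB1 and HSPB8, which HSF1 also induces, are not in the list. None of them passed in the main fit (log2 fold change -0.10, 0.10 and 0.01). Without control 3, HSPB1 had 0.33 and was called higher, and HSPB8 had 0.05. Among 26 tested genes of 27 listed targets, 14 fell, 1 rose and 11 did not pass, beside 13.3% lower and 9.58% higher over all tested genes (limma, BH). The median log2 fold change was -0.29, against -0.01 over all tested genes, and 23 of 26 were below 0. TCP1, a subunit of the TRiC chaperonin, and MRPL18, a mitochondrial ribosomal protein with a stress-induced form, had the smallest p. TCP1 was at 129, 121 and 125 FPKM in the knockout libraries, against 228, 221 and 257 FPKM in the control libraries, and its log2 fold change was -0.91 (adjusted p = 0.000218). MRPL18 stood at 55.7% of the control mean (log2 fold change -0.83). Both lie on chromosome 6 beyond HSF2, among the lower genes described above. Without these 2 genes, 12 of 24 fell, 1 rose and the median was -0.28. CHORDC1, an HSP90 cochaperone, and DNAJB4, an HSP40 cochaperone, stood at 66.5% and 62.2% of the control mean. DNAJB4 had a log2 fold change of -0.61, which was -0.32 after the correction for GC content and length. HSP90AA1, the inducible HSP90, was at 721, 651 and 714 FPKM in the knockout libraries, against 1039, 966 and 1012 FPKM in the control libraries. The riser was SERPINH1, a collagen chaperone of the endoplasmic reticulum, at 138% of the control mean. Leaving out 1 library moved the number of lower target genes to 9 without knockout 1, 6 without knockout 2 and 8 without knockout 3. It was 9 without control 1, 15 without control 2 and 19 without control 3. The lower calls among all 11262 tested genes moved too. In the same order of fits they numbered 897, 639, 730, 928, 1426 and 2418.

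**Figure D5:**
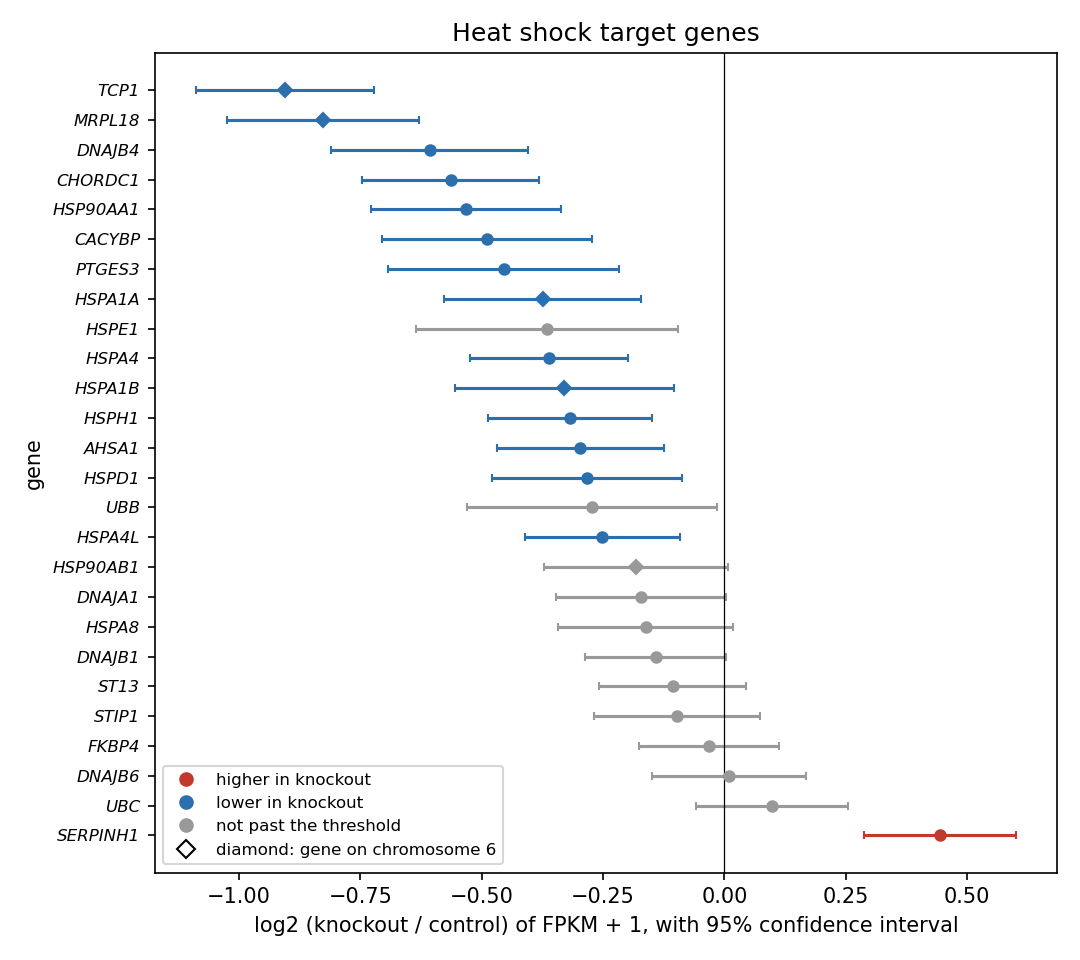
Log2 fold change of knockout over control on the log2(FPKM + 1) scale with its 95% confidence interval for the 26 tested HSF1 target genes, in blue where lower, red where higher and grey where not past the threshold, with diamonds for genes on chromosome 6. A total of 14 genes are lower and 1, SERPINH1, is higher.

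Other factors that regulate HSF1 mostly did not pass. Among 12 tested genes of 16 listed, 2 fell and 10 missed the threshold, beside 13.3% lower and 9.58% higher over all tested genes. The median of the 12 was 0.02 on the log2 scale. PTGES3, the HSP90 cochaperone p23, stood at 72.7% of the control mean (log2 fold change -0.46, limma, adjusted p = 0.0158, but 0.0890 without knockout 2). EEF1A1, a translation elongation factor that takes part in HSF1 activation, stood at 83.1% (log2 fold change -0.27, adjusted p = 0.0413), and its call was lost without any 1 library other than control 3 (adjusted p from 0.0759 to 0.158) without the filter (0.0691) and under the replicate block (0.0998, and 0.0577 with the correction for GC content and length). EEF1A1 lies on the lower stretch of chromosome 6. SIRT1, a deacetylase of HSF1, and EP300, an acetyltransferase, had log2 fold changes of -0.21 and 0.30 and did not pass. SIRT1 passed without control 3 (adjusted p = 0.0211) or with array weights (0.000438), and EP300 passed without control 2 (log2 fold change 0.44, adjusted p = 0.0401) but had 0.11 without control 3 (adjusted p = 0.313). Of other heat shock factors, HSF4 was tested and did not pass by limma. HSF4 was at 2.90, 3.13 and 3.18 FPKM in the knockout libraries, against 2.75, 2.80 and 3.36 FPKM in the control libraries. HSFX1, HSFY1 and HSFY2 were listed at 0 in every library and HSF5 reached 0.011 FPKM in 1.

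The nucleotide exchange factors of HSP70 outside the BAG family moved in both directions. Of 8 tested genes 3 fell, 1 rose and 4 did not pass, beside 13.3% lower and 9.58% higher over all tested genes. The median log2 fold change of the 8 was -0.20. The genes that fell encode the cytosolic HSP110 proteins: HSPA4 stood at 77.7%, HSPH1 at 80.1% and HSPA4L at 79.2% of the control mean (limma, adjusted p = 0.00833, 0.0174 and 0.0339). HYOU1, which serves HSP70 in the endoplasmic reticulum, rose to 130.1% of the control mean (log2 fold change 0.38, adjusted p = 0.0368), and its log2 fold change was 0.25 without control 3 and 0.24 after the correction for GC content and length. Among these 4, HSPA4 kept its call without each library in turn. HSPH1 lost it without knockout 2 (adjusted p = 0.0714), knockout 3 (0.0752) or control 1 (0.0697). HSPA4L and HYOU1 lost it without any 1 knockout library or control 1 (adjusted p from 0.0624 to 0.154) and without the filter (0.0543 and 0.0739). HYOU1 also lost it as TPM (0.0613), and HSPA4L after the correction for GC content and length (log2 fold change -0.15, adjusted p = 0.0679). HSPBP1, which like BAG2 inhibits STUB1, was at 19.2, 23.1 and 19.5 FPKM in the knockout libraries, against 18.9, 18.5 and 24.9 FPKM in the control libraries, and did not pass (log2 fold change 0.00, and 0.13 without control 3).

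Genes that work with BAG3 and HSPB8 in chaperone-assisted autophagy, or that BAG3 links to the Hippo pathway, moved in both directions. Among 19 tested of 22 listed, 3 rose, 5 fell and 11 did not pass, beside 9.58% higher and 13.3% lower over all tested genes. The median log2 fold change of the 19 was 0.01. STUB1 itself, the ligase of this pathway, is 1 of the 5 that fell. SQSTM1, the autophagy receptor p62, was at 149.9, 158 and 150.5 FPKM in the knockout libraries, against 218, 228 and 248 FPKM in the control libraries. It stood at 66.0% of the control mean (log2 fold change -0.59, limma, adjusted p = 0.00127). LATS1, a kinase of the Hippo pathway, stood at 58.1% of the control mean (log2 fold change -0.66) and lies on chromosome 6 in the lower stretch. SYNPO, an actin-binding relative of the BAG3 partner SYNPO2, averaged 2.40 ± 0.0737 FPKM in the knockout and 1.01 ± 0.228 FPKM in the control (SD, n = 3 each; log2 fold change 0.76, and 1.19 with a pseudocount of 0.1). Inducible HSP70 is encoded by HSPA1A and HSPA1B, whose sequences are so alike that reads may be shared; they fell to 76.8% and 79.4% of the control mean (limma, adjusted p = 0.0185 and 0.0426). Both lost their calls without any 1 knockout library (adjusted p from 0.0580 to 0.152), and HSPA1B also without control 1 (0.0879) or the filter (0.0753). HSPA8, the constitutive HSP70, had a log2 fold change of -0.16 and did not pass (adjusted p = 0.171), but did without control 3 (0.00935) and with array weights (0.00154).

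The partners of BAG6 did not pass. In the list of 6 genes for the BAG6 complex and the insertion of tail-anchored proteins, 0 were called by limma. Over all tested genes 22.9% were called. UBL4A, a subunit of the BAG6 complex, was at 16.9, 18.5 and 17.6 FPKM in the knockout libraries, against 19.8, 20.8 and 22.1 FPKM in the control libraries. The groups did not overlap, and the log2 fold change was -0.23 (limma, adjusted p = 0.0538). UBL4A passed as TPM (0.0379), after the correction for GC content and length (0.00283, blocked 0.0114), without control 3 (0.0280) and under array weights (0.00188). GET4, the other subunit, had a log2 fold change of 0.03, the cochaperone SGTA -0.02, and the ATPase GET3 0.00. The membrane receptor components CAMLG and GET1 had -0.25 and -0.11. Without control 3 the values were -0.13 for CAMLG, -0.02 for GET1, 0.12 for GET4 and 0.04 for GET3. SGTA passed after the correction for GC content and length (log2 fold change -0.15, adjusted p = 0.0400) but not with the block added (0.0804), and CAMLG with array weights (0.0196).

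Among 7 tested of 11 listed binding partners of BAG1, BAG4 and BAG5, 1 rose and 6 did not pass. Their median log2 fold change was 0.05. Over all tested genes 9.58% were higher and 13.3% lower. TNFRSF25, a death receptor of the TNF family that BAG4 binds, rose to 130.9% of the control mean (log2 fold change 0.35, limma, adjusted p = 0.0274). Its call was lost without any 1 library other than control 3 (adjusted p from 0.0532 to 0.114) without the filter (0.0531), and in the GC and length correction with the replicate block (0.0707). SIAH1, a ubiquitin ligase bound by BAG1, PARK7, encoding DJ-1, and PINK1, the mitophagy kinase, had log2 fold changes of -0.13, -0.11 and -0.07 and did not pass. Without control 3 these were -0.07 for SIAH1, -0.01 for PARK7 and -0.05 for PINK1.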

How the data were processed

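Poly(A)-selected RNA from HaCaT cells was profiled in 3 STUB1 knockout and 3 control libraries. The authors deposited 1 FPKM value for each of 20014 Ensembl genes per library. Build GRCh38.p13, Cufflinks, edgeR 3.6.3, featureCounts 1.6.3, HISAT2 2.0.5 and Trimmomatic 0.36 appear, without roles, in the submitters' processing notes. How strand and multiply mapped reads were handled is not given in the sources used here. FPKM is no count, so the count tools were not run here. Ensembl identifiers were given symbols by an identifier table (19991 genes) or GENCODE 29 (23 genes), and coordinates, exonic length and GC content from GENCODE 29 on GRCh38 (19873 genes).

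Genes with a mean of at least 1 FPKM were tested (11262 genes) on log2(FPKM + 1) by limma 3.58.1 (R 4.3.3), genotype being the model's 1 term, with a trended variance prior and Benjamini-Hochberg adjustment at 0.05 over all tested genes. Fold changes on this scale understate changes of low genes. The test was checked on simulated data. It recovered 70% of 100 genes changed by 0.5 on the log2 scale and 99% of 100 genes changed by 1, with 16 false calls. Smaller changes were not simulated, so a gene that did not pass may still have changed. The simulated libraries varied independently of each other, unlike the same-numbered libraries described below. Steps of low FPKM values gave estimated library sizes of 45700000 to 52600000 reads. Of 320 to 354 low values in each library, no more than 59.4% to 65.5% came within 0.15 of a whole read, where 30% would by chance. Reads were thus not recovered and no counting interval is given. The deviations of same-numbered libraries from their group means correlated across genes at 0.375, 0.150 and 0.188. All exceeded 0.1, and the replicate numbers were therefore taken as pairs in alternative fits, called the replicate block. The main fit was unpaired. The labels name no common batch, and a group's deviations sum to 0. Alternatives were a pseudocount of 0.1, no filter, rescaling to TPM, the replicate block, a per-library loess correction for GC content and length (11177 genes) with and without the block, array weights, and leaving out each library.

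The member genes and the 7 gene lists were chosen with earlier results of these data known. Text names all members, STUB1 and, of each list, up to 4 genes with the smallest p (all where a list has at most 6). RAB23, JMJD8, HSP90AA1, SERPINH1, HSPA8, HSPA1A, HSPA1B, HSPBP1, HSF4, WIPI1, HSPB6 and CRYAB were named after their values were seen. Promoter windows came from RefSeq (GRCh38.p14). Tables and plots used matplotlib 3.10.9, scipy 1.17.1, numpy 2.4.6 and pandas 2.3.3 under Python 3.11.15.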

Additional observations from a re-analysis of the deposited data

How the results depend on the processing

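HSF2 and BAG2 were called lower under all 13 alternatives, and BAG3 joined them with array weights. Among members, 0 were higher with all libraries, against 2 under the replicate block, 4 under array weights, and 0 to 4 without 1 library, while 2 were lower without any 1 library. Of the 70 tested listed genes 6 were higher and 18 lower, beside 9.58% higher and 13.3% lower over all tested genes. These counts were 3 higher without a filter, 11 higher and 31 lower under array weights, and 2 to 9 higher and 9 to 26 lower without 1 library. HSF1 targets ranged from 6 to 19 lower without 1 library. Over all tested genes 1079 were higher and 1500 lower, against 667 higher as TPM, 3139 higher and 3298 lower under array weights, and 391 to 2103 higher and 639 to 2418 lower without 1 library. Higher genes made up 41.8% of calls, and 29.1% as TPM, which moved the median of all genes to -0.05. Array weights gave control 3 a weight of 0.123. The cause of these shifts was not tested.

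Some genes not past the threshold changed sign on the log2 scale. Without 1 library, BAG5 ranged from -0.0789 to 0.0383, HSPB1 from -0.0415 to 0.328, HSPB8 from -0.0441 to 0.0503, GET4 from -0.0337 to 0.124, SGTA from -0.0437 to 0.0194, GET3 from -0.0465 to 0.0372 and HSPBP1 from -0.0829 to 0.131. After the correction for GC content and length, with and without the replicate block, BAG4 had 0.00987, BAG5 0.098, GET4 -0.126, GET3 0.00246, SIAH1 0.0255 and PARK7 0.0426. As TPM, HSPB8 had -0.0275 and GET4 -0.0128. Under array weights GET1 had 0.0328, SGTA 0.00162, GET3 0.0599 and HSPBP1 0.0562.

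The replicate block ended the call of EEF1A1 and gave calls to HSF1, BAG6 and RAB23, and among the genes named it changed no other call without the GC and length correction. The deposited FPKM carry no counts, so counting error is unknown, and genes near 1 FPKM are the least precise.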

Other observations

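Among listed genes below the filter of 1 FPKM, WIPI1 was lower and HSPB6 higher in the knockout when every gene above 0 was tested. WIPI1, a phosphoinositide-binding protein of early autophagosomes, was at 0.476, 0.36 and 0.395 FPKM in the knockout libraries, against 1.04, 1.49 and 1.12 FPKM in the control libraries. It stood at 33.7% of the control mean (log2 fold change -0.65 on the log2(FPKM + 1) scale, limma on all genes above 0, BH-adjusted p = 0.00487). Every knockout library was below every control library. HSPB6, a small heat shock protein, was higher, at 0.061, 0.074 and 0.088 FPKM in the knockout libraries, against 0.013, 0.022 and 0.038 FPKM in the control libraries (limma on all genes above 0, BH-adjusted p = 0.0284). At such levels a value rests on few reads. Without the filter 15.3% of tested genes were called.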
